A study of Mus musculus with 16 samples.

Results

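The nuclei described here were picked by transcripts of newly formed oligodendrocytes, the cells that have left the precursor state and are starting to make myelin. A nucleus was kept when it held at least 2 unique molecular identifiers (UMIs, each standing for 1 captured RNA molecule) of 9630013A20Rik and Enpp6 together and at least 1 of Bcas1. It could hold at most 1 UMI of the precursor gene Pdgfra, at most 1 of the neuronal genes Slc17a7, Gad1 and Gad2 together, and at most 1 of the astrocyte gene Gja1. Of 147873 nuclei with at least 500 UMIs, at least 300 genes and at most 5% mitochondrial UMIs, 1151 met the rule (0.778%). They are called the gated nuclei below, because the data fit the cell type's name only in part.

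The nuclei came from the hippocampus of 16 female mice aged 9 months, in 4 groups of 4. Wild-type mice (Ch25h+/+) either carried tau (Tau+) or did not (Tau-), and mice that lack Ch25h (Ch25h-/-) likewise came as Tau+ and as Tau-. Ch25h encodes cholesterol 25-hydroxylase, and the comparisons ask what tau and the loss of that enzyme do. The labels name neither the tau line, its promoter nor how Ch25h was removed, so the cells that make the tau are not known here. Each mouse gave 1 library of nuclear RNA, with 8130 to 11654 nuclei, and p-values measure the spread between these libraries.

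Oligodendrocytes arise from precursors that carry the growth factor receptor Pdgfra. On leaving the cell cycle they pass through a short stage with the long noncoding RNA 9630013A20Rik, the choline phosphodiesterase Enpp6 and the early myelination protein Bcas1, and then express late myelin proteins such as Mog. In the adult brain this stage is scarce, and it is used as a sign that oligodendrocytes are being made.

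The promoters of 9630013A20Rik and Enpp6 are shown because their UMIs together decide the gate. The promoter of Bcas1, which the rule also needs, is not shown. That of Fyn is shown because, of 5 promoters searched, it alone held a TCF/LEF match, the motif of the family of Tcf7l2 described below. The sequences are from RefSeq (GRCm38.p6) and run 5′ to 3′ on the strand of the gene for 300 bases around a start of the gene. For Fyn this start lies inside the gene's GENCODE span (chr10:39368855-39565381), whose first base is outside the window. Capitals mark the SOX motif, ACAAAG or ACAATG, and the TCF/LEF motif, TCAAAG, each searched on both strands. The motifs ACAAAG and TCAAAG share the letters CAAAG.
9630013A20Rik, chr14:84476375-84476674, minus strand: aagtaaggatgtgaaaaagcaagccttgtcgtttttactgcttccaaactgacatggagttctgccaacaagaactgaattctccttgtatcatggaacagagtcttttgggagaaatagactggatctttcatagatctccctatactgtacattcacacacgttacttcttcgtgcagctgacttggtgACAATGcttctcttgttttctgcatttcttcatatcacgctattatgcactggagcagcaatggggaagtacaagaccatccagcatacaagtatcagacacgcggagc
Enpp6, chr8:46986637-46986936, plus strand: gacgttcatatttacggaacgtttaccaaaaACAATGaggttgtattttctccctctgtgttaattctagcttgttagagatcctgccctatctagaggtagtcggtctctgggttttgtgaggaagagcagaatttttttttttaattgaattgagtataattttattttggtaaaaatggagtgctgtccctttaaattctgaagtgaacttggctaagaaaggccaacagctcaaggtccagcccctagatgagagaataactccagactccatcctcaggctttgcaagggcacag
Fyn, chr10:39369549-39369848, plus strand: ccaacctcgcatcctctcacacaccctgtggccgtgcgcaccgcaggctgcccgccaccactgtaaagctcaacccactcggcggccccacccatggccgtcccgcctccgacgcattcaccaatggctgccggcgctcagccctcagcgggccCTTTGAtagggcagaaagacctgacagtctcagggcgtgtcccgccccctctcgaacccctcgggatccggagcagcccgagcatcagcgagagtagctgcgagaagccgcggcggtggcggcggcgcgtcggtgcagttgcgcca
The windows of 9630013A20Rik and Enpp6 each held 1 SOX match and 0 TCF/LEF matches, and that of Fyn held 0 and 1. The window of Cnksr3 held 1 SOX match, and that of Bmp4 held neither motif. Of 32544 distinct promoters, 28.4% held a SOX match and 16% a TCF/LEF match. A match is a description of these letters and not a site.

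The gated nuclei were not of 1 kind. By their UMIs of 9630013A20Rik and Enpp6 together, 624 nuclei (54.2%) held exactly 2, 289 (25.1%) held 3 to 4, 95 (8.25%) held 5 to 9 and 143 (12.4%) held 10 or more. The first 2 kinds made up 913 nuclei (79.3%), and 88.6% and 87.2% of them held a Mog or Mag UMI. Those with 10 or more carried the genes known from newly formed oligodendrocytes, together with several of precursors. Since the nuclei were chosen by their transcripts, levels are compared between stages as a description, with no test.

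Tcf7l2 (chr19:55741820-55933654 in GRCm38), a Wnt-pathway transcription factor of differentiating oligodendrocytes, shows the split. Its level was 75.2 ± 43.2 CPM (a gene's UMIs scaled to the same total in each library and stage; mean ± SD of 16 libraries) in nuclei with 2 marker UMIs and 2042 ± 727 CPM with 10 or more, higher in 16 of 16 libraries. The 1903 nuclei just outside the rule, with 1 marker UMI and all else met, had 67.5 ± 27.2 CPM. Nuclei with 2 marker UMIs were thus close to those just outside the rule. Precursors (2 or more Pdgfra UMIs, at most 1 marker UMI) had 174 ± 30.3 CPM. Mature oligodendrocytes (2 or more UMIs of Mog and Mag together, at most 1 marker UMI) had 62.2 ± 8.05 CPM.

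Other genes of the newly formed stage had the same order. Fyn, a Src-family kinase of process outgrowth, was at 271 ± 154 CPM with 2 marker UMIs and 3164 ± 912 CPM with 10 or more. Tns3, a focal adhesion protein, was at 153 ± 51.9 and 2231 ± 548 CPM. Itpr2, a calcium release channel of internal stores, was at 114 ± 58.9 and 1413 ± 417 CPM. Each was higher with 10 or more in 16 of 16 libraries, as were 2 genes of earlier signalling. Bmp4, a secreted ligand, was at 7.58 ± 10.8 and 314 ± 165 CPM. Gpr17, a receptor of committed precursors, was at 49.4 ± 62.9 and 334 ± 165 CPM.

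Precursor genes were not all low in these nuclei. The 14 precursor markers summed to group means of 17990 to 28490 CPM with 10 or more marker UMIs, against 24690 to 27770 CPM in precursors and 4529 to 6703 CPM with 2 marker UMIs. Pdgfra is among the 14, and its part is fixed by the choice of nuclei, since the rule limits it and precursors were chosen by it. Tnr, an extracellular matrix glycoprotein, was at 7445 ± 2317 CPM with 10 or more and 3439 ± 500 CPM in precursors. Ptprz1, a receptor phosphatase, was at 322 ± 176 and 2232 ± 241 CPM. Over all 7209 genes 2770 were higher with 10 or more marker UMIs than with 2, with a median ratio of 0.867. Of 11 precursor genes with enough UMIs, 8 were higher, and 0 had their highest mean in the gated nuclei as a whole.

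Most genes of the mature stage were lower with 10 or more marker UMIs. Of 24 mature genes, 2 were higher than with 2 marker UMIs (Mbp and S100b), with a median ratio of 0.118, and of 18 myelin proteins 4 were higher, with a median ratio of 0.734. Mog, on the outer surface of myelin, was at 910 ± 312 CPM with 2 marker UMIs and 297 ± 174 CPM with 10 or more. Hapln2, a matrix link protein of the node of Ranvier, was at 373 ± 218 and 10.4 ± 28.1 CPM. Anln, an actin-binding scaffold protein, was at 614 ± 199 and 15 ± 29.5 CPM. All 3 were lower in 16 of 16 libraries. Mbp, the main protein of compact myelin, was at 3501 ± 928 and 5975 ± 1628 CPM, higher in 14 of 16. Mag, an adhesion protein next to the axon, was at 762 ± 200 and 719 ± 441 CPM, a difference smaller than its spread.

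**Figure D1:**
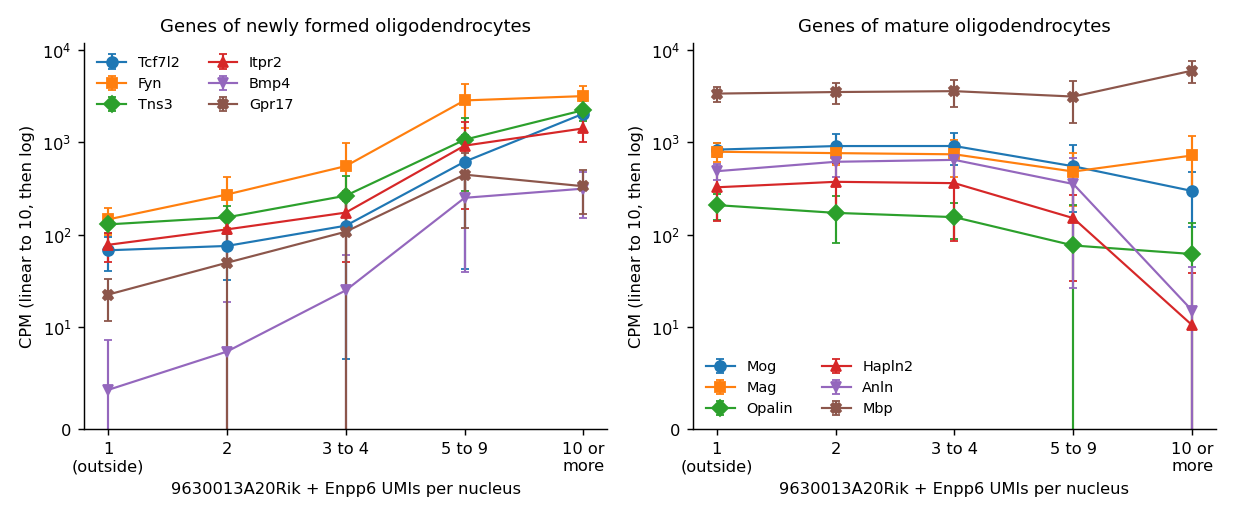
Level in CPM (vertical axis, linear to 10 and logarithmic above) by the number of 9630013A20Rik and Enpp6 UMIs in a nucleus, for 6 genes of the newly formed stage and 6 of the mature stage. Points are means and bars SDs of 16 libraries. Tcf7l2 goes from 75.2 CPM at 2 UMIs to 2042 CPM at 10 or more, and Mog from 910 to 297 CPM.

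Transcripts of both stages met in single nuclei. A Mog or Mag UMI was present in 88.6% of nuclei with 2 marker UMIs and 76.9% of those with 10 or more, against 6.28% of precursors. A Gpr17 UMI was present in 4.97% and 60.8% of them, against 27.0% of precursors and 0.347% of mature oligodendrocytes. Of the 143 nuclei with 10 or more, 58 held both. Both were held by 25 of the 74 left without high doublet scores, and by 13 of 143 after thinning to 1000 UMIs.

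Depth and doublet scores moved with the marker count. The median depth was 2368 UMIs at 2 marker UMIs and 5293 at 10 or more, while precursors had 2973 and mature oligodendrocytes 1678. Thinned to 1000 UMIs a nucleus, 6.44% of nuclei with 2 marker UMIs and 74.8% of those with 10 or more held a Tcf7l2 UMI, against 15.7% and 90.9% before thinning. That leaves out 3 nuclei of the first kind and 0 of the second. A high doublet score was given to 8.17% and 48.3% of these nuclei. Without those scores the 74 nuclei left with 10 or more marker UMIs held 1260 CPM of Tcf7l2, pooled over libraries, against 2054 CPM with them. The corresponding values were 3318 and 3087 CPM for Fyn and 435 and 300 CPM for Mog. Frmd4a, a scaffold protein of cell polarity, was at 6740 CPM without those scores and 12050 CPM with them. The part of doublets in the levels was not otherwise tested.

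Over all gated nuclei, 48 of 7209 genes with a mean of at least 5 UMIs a library were higher than in precursors and in mature oligodendrocytes in 16 of 16 libraries (0.666%). The genes of the rule, 9630013A20Rik, Enpp6 and Bcas1, are among the 48 by the way nuclei were chosen. Frmd4a was at 188 ± 47.2 CPM in precursors, 310 ± 49.0 CPM in mature oligodendrocytes and 3102 ± 1429 CPM in gated nuclei. Fyn was at 241 ± 35.1, 87.9 ± 14.3 and 1127 ± 327 CPM. Prom1, the membrane glycoprotein prominin-1, was at 1.17 ± 1.35, 3.83 ± 2.93 and 73.7 ± 42.2 CPM. Most of this came from the nuclei with 10 or more marker UMIs, which held 9720 of 11528 Frmd4a UMIs and 2490 of 4523 Fyn UMIs. With 2 marker UMIs, Frmd4a was at 371 ± 169.5 CPM and Fyn at 271 ± 154 CPM, close to mature oligodendrocytes and to precursors.

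Genes of the cytoskeleton and of signalling were also among the 20 with the largest ratio to the higher of the other stages. Kif19a, a microtubule motor, was at 6.97 ± 3.91, 0.98 ± 0.654 and 80.4 ± 48.7 CPM in precursors, mature oligodendrocytes and gated nuclei. Map1b, a microtubule-associated protein, was at 128.5 ± 32.7, 152.6 ± 38.7 and 611 ± 165 CPM. Pik3r3, a regulatory subunit of phosphoinositide 3-kinase, was at 78.3 ± 13.7, 77.4 ± 17.8 and 608 ± 351 CPM. Bmp4 was at 13.0 ± 7.03, 0.692 ± 0.617 and 89.9 ± 38.2 CPM, so its level in precursors lay between the other stages.

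Overlapping genes limit several of these 20. Gm13187 and Gm36988 lie within Frmd4a, Gm45600 lies antisense to Enpp6, Bcas1os2 antisense to Bcas1, and Gm47134 and 9530059O14Rik lie on opposite strands of the same stretch. 9630013A20Rik lies on the strand opposite to Pcdh17, and Prom1 overlaps Gm42716 and Gm16401. Whether counting used the strand is not given in the sources used here, so reads of such pairs may not be told apart.

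**Figure D2:**
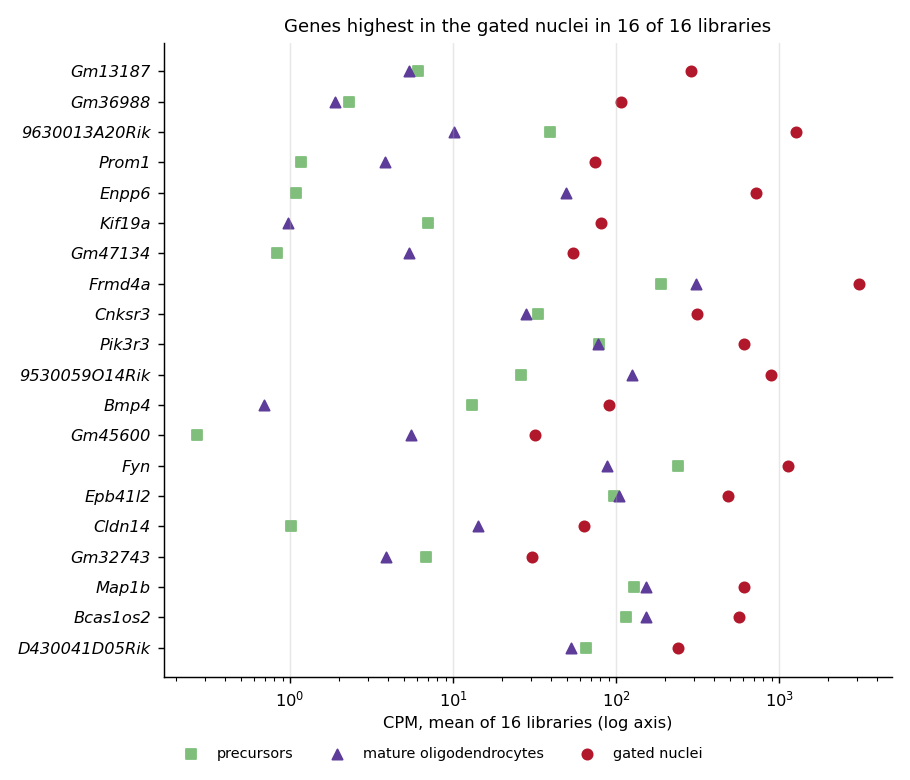
Mean level in CPM (horizontal log axis, 16 libraries) of the 20 genes with the largest ratio of the gated nuclei to the higher of the other stages, in precursors, mature oligodendrocytes and gated nuclei. Frmd4a stands at 3102 CPM in gated nuclei and 310 CPM in mature oligodendrocytes.

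Lists of genes were read against all genes, of which 24.2% had their highest mean in the gated nuclei. Of 18 further genes of newly formed oligodendrocytes and committed precursors with enough UMIs, 15 did (83.3%). These include Tcf7l2, Itpr2, Sirt2, a tubulin deacetylase, and Nfasc, a cell adhesion protein of the axon contact. Of 25 genes of cholesterol synthesis, 11 had enough UMIs and 9 of these did (81.8%). Their median ratio of gated nuclei to mature oligodendrocytes was 1.24, against 7.54 for the list of the newly formed stage. Of 30 genes of the cytoskeleton and process outgrowth, 12 did (40%), and of 18 myelin proteins, 1 did, the tetraspanin Cd9. The rule itself put Bcas1 among the 12, and Mog and Mag, which are myelin proteins, define the mature stage. Fyn, Tns3 and Nfasc, also among the 12, were already counted in the list of the newly formed stage.

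Gated nuclei were a larger share of nuclei in Tau+ than in Tau- mice. They were 1.02 ± 0.289% of nuclei (SD, n = 4 libraries) in Ch25h+/+ Tau+ mice, with 0.773% to 1.37%, and 0.569 ± 0.137% in Ch25h+/+ Tau- mice, with 0.403% to 0.720%. In Ch25h-/- mice they were 1.14 ± 0.328% with tau, from 0.846% to 1.60%, and 0.431 ± 0.160% without, from 0.281% to 0.657%. In both genotypes the tau groups did not overlap. Depth differed with tau in part. Mature oligodendrocytes of Ch25h+/+ mice had library medians of 1641 to 1993.5 UMIs with tau and 1424 to 1501.5 without. In Ch25h-/- mice these were 1505 to 2072.5 and 1359 to 1824.5, with overlap. Medians over all nuclei overlapped in both genotypes. Beyond the thinning below, the part of depth in the share was not tested.

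Over both genotypes the share was 0.580 percentage points higher with tau (two-sided exact permutation test within genotype, p = 0.000408, the smallest that 4900 arrangements can give, adjusted p = 0.0098 over 24 tests). Within a genotype it was 0.454 points higher in Ch25h+/+ and 0.706 points higher in Ch25h-/- mice, each with an exact permutation p of 0.0286, the smallest of 70 arrangements, and an adjusted p of 0.151. With nuclei thinned to 1000 UMIs the difference over both was 0.128 points (exact permutation test, adjusted p = 0.108), and with 10 or more marker UMIs, an alternative chosen after the data were seen, it was 0.0761 points (adjusted p = 0.147, exact permutation test). Both end the call. These settings keep fewer nuclei, so the points are not on the scale of the first value. With 10 or more marker UMIs the shares were 0.138 ± 0.0389% and 0.0564 ± 0.0210% in the Ch25h+/+ groups with and without tau, and 0.134 ± 0.0895% and 0.0627 ± 0.0259% in the Ch25h-/- groups. In Ch25h-/- mice this was 0.138%, 0.258%, 0.0789% and 0.0596% with tau and 0.0358%, 0.0485%, 0.0720% and 0.0943% without, so those groups overlapped and replicate 2 with tau stood highest. Thinned, they were 0.263 ± 0.0815% and 0.208 ± 0.0530% in the Ch25h+/+ groups, which are close together, and 0.330 ± 0.111% and 0.129 ± 0.0182% in the Ch25h-/- groups, which are not. The difference was 0.665 points in replicates 1 and 2 and 0.495 points in replicates 3 and 4, 2 sets that differ in the first principal component of the other nuclei and that are too small to pass alone.

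Mature oligodendrocytes were also a larger share with tau, by 6.29 points over both genotypes (exact permutation p = 0.000816, adjusted p = 0.0196 over the added comparisons alone). They were 14.9 ± 2.59% of nuclei in Ch25h+/+ Tau+ and 11.4 ± 1.40% in Ch25h+/+ Tau- mice, and 17.4 ± 2.05% and 8.23 ± 3.72% in the Ch25h-/- groups with and without tau. The Ch25h+/+ groups overlapped, with 11.5% in Tau+ replicate 1 and 13.4% in Tau- replicate 1. In Ch25h-/- Tau- mice the share was 12.7% and 9.95% in replicates 1 and 2, and 4.99% and 5.33% in replicates 3 and 4. In Ch25h-/- Tau+ mice it was 14.9%, 16.5%, 19.0% and 19.1% in replicates 1 to 4. Among nuclei of the oligodendrocyte lineage, gated nuclei were 5.65 ± 0.962% and 4.15 ± 1.04% in the Ch25h+/+ groups with and without tau, and 5.60 ± 1.76% and 4.17 ± 1.23% in the Ch25h-/- groups. That difference over both genotypes was 1.47 points (exact permutation p = 0.0314, adjusted p = 0.151), and after thinning it was -0.000131 points. Per 100 mature oligodendrocytes, gated nuclei numbered 5.41 to 8.04 and 3.66 to 7.06 in the Ch25h+/+ groups with and without tau. In the Ch25h-/- groups they numbered 4.43 to 9.72 and 2.83 to 7.93, so libraries overlapped in both genotypes. Beyond these shares and ratios, how far the larger number of mature oligodendrocytes accounts for the share of gated nuclei was not tested.

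Ch25h loss, as labelled, showed no difference in the share beyond the spread. It was 0.114 points higher in Tau+ mice (exact permutation p = 0.60) and 0.138 points lower in Tau- mice (exact permutation p = 0.257). Inside the gate, a Mog or Mag UMI was present in 86.2 ± 4.23% and 80.7 ± 7.27% of nuclei in the Ch25h+/+ groups with and without tau, and in 89.3 ± 4.32% and 74.3 ± 13.3% in the Ch25h-/- groups. Tau went with 10.3 points more over both genotypes (exact permutation p = 0.0171, adjusted p = 0.151), which did not pass.

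**Figure D3:**
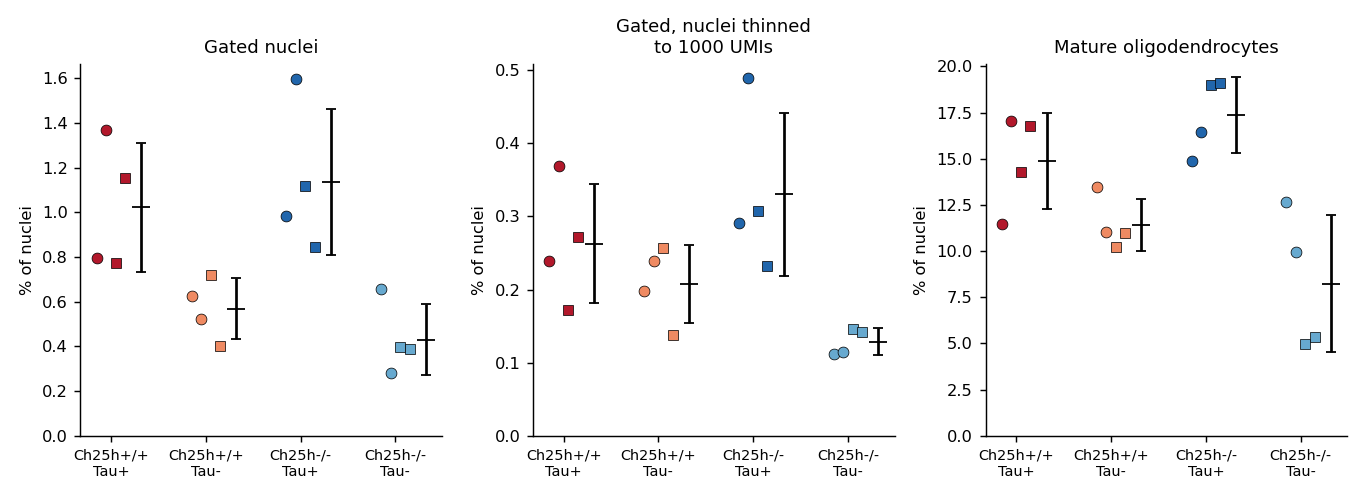
Percentage of nuclei in each library that were gated, gated after thinning to 1000 UMIs, and mature oligodendrocytes, by group. Circles are replicates 1 and 2, squares replicates 3 and 4, and bars are mean ± SD. The Tau+ libraries reach from 0.773% to 1.60% gated, above the Tau- libraries at 0.281% to 0.720%.

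Gene levels within the gated nuclei were compared over libraries, with 4952 genes tested. Ch25h had 2 UMIs in all gated nuclei, both in libraries labelled Ch25h-/- Tau+. Over all nuclei it had 102 and 46 UMIs in the groups labelled Ch25h+/+ with and without tau, and 107 and 89 in those labelled Ch25h-/-, so its counts do not follow the label. Which part of the gene was removed is not given in the sources used here, and the genotypes are used as labelled. Gm43049 had 30 UMIs in Ch25h+/+ Tau+ and 23 in Ch25h-/- Tau+ gated nuclei, and 0 in both Tau- groups, so it followed the tau label. Mapt, the mouse tau gene, did not pass (log2 fold change 0.17 ± 0.13 SE).

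Over both genotypes 7 genes were called for tau (0.141% of those tested; edgeR quasi-likelihood test, Benjamini-Hochberg adjusted p under 0.05), 1 higher and 6 lower. C4b (chr17:34728380-34743882), complement component C4, was the higher one. Its level was 199.9, 110.8, 21.0 and 121 CPM in the Ch25h+/+ Tau+ libraries and 12.3, 10.2, 9.62 and 6.96 CPM in the Ch25h+/+ Tau- ones. It was 63.3, 117, 27.4 and 119 CPM in the Ch25h-/- Tau+ libraries and listed at 0 in all 4 Ch25h-/- Tau- ones. All Tau+ libraries lay above all Tau- ones. These levels rest on few molecules, with 156 and 7 C4b UMIs in the Ch25h+/+ groups with and without tau. The Ch25h-/- groups held 116 and 0, so the Tau- values are near the floor. The log2 fold change was 5.43 ± 0.84 (edgeR, adjusted p = 0.0317), a value that depends on the prior count. Over the pooled Ch25h-/- libraries it was at least 16-fold higher with tau (82.5 against 5.16 CPM), where the Tau- group as a whole was set to 3 counts. This bound leaves out the spread between mice, of which the lowest with tau was at 27.4 CPM. In mature oligodendrocytes C4b was also higher, by 3.28 ± 0.46 (edgeR, adjusted p = 0.0279). Droplets with fewer than 100 UMIs held 115 and 63.2 CPM of C4b in the Tau+ groups and 17.5 and 16.5 CPM in the Tau- groups, and the part of free RNA was not tested. Markers of other cell types differed on average between Tau+ and Tau- gated nuclei in both directions. The 10 microglia markers summed to 144 and 83.2 CPM in the Ch25h+/+ groups with and without tau, and 120 and 109 CPM in the Ch25h-/- groups. The 5 markers of choroid plexus and ependyma summed to 278 and 114 CPM and to 225 and 103 CPM in the same order, and the 6 mural markers to 7.67 and 2.47 CPM and to 17.9 and 6.43 CPM. The 10 astrocyte markers, which include Gja1 that the rule limits, summed to 760 and 649 CPM and to 683 and 717 CPM. The 5 fibroblast markers summed to 9.41 and 46.1 CPM and to 14.7 and 27.3 CPM. All markers of these 5 lists were detected, their libraries overlapped between Tau+ and Tau-, and their part in C4b was not tested. Of 6 endothelial markers 2 were at 0.

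Among genes lower with tau, Plxna2 (chr1:194618218-194816869), a semaphorin receptor, was at 4.11 to 46.2 CPM (median 21.9) in the 8 Tau+ libraries and 50.9 to 86.6 CPM (median 71.7) in the 8 Tau- libraries. Its log2 fold change was -1.76 ± 0.31 (edgeR, adjusted p = 0.0306). Agbl4 (chr4:110397661-111664324), a cytosolic carboxypeptidase that removes glutamates from tubulin, was at 48.5 to 176.5 CPM (median 88.7) with tau and 188 to 390 CPM (median 221) without. Ldb2 (chr5:44472132-44799680), a cofactor of LIM-domain transcription factors, was at 18.5 to 71.4 CPM (median 43.0) with tau and 79.7 to 197 CPM (median 106.5) without. Agbl4 fell by 1.29 and Ldb2 by 1.53 on the log2 scale (edgeR, both with an adjusted p of 0.0417). The Tau+ and Tau- libraries did not overlap for these 3 genes.

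Fam189a1, Rit2 and Syt16 were the other calls, with overlapping libraries and so outside the rule for naming, added after their values were seen. Fam189a1 fell by 1.28 on the log2 scale (edgeR, adjusted p = 0.0118). Rit2, a small GTPase of neurons, fell by 1.21 and Syt16, of the synaptotagmin family, by 1.26 (edgeR, adjusted p = 0.0417 each). None of the 6 lower genes was called in precursors or mature oligodendrocytes. In mature oligodendrocytes of Ch25h+/+ mice all 6 had lower means with tau, with Fam189a1 at 44.5 and 84.5 CPM with and without. In those of Ch25h-/- mice Agbl4 and Ldb2 had higher means with tau, and Fam189a1 was at 63.7 and 64.3 CPM. All 6 had higher means in precursors than in mature oligodendrocytes in each group. The part of the make-up of the gated nuclei in these 6 genes was not tested.

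Neuron markers were lower in most Tau+ libraries too. The 10 neuron markers, all detected, summed to 1457 to 6332 CPM in the gated nuclei of Ch25h+/+ Tau+ and 6342 to 12730 CPM in those of Ch25h+/+ Tau- mice. They summed to 1500 to 4842 CPM and 3630 to 9650 CPM in the Ch25h-/- groups with and without tau. Slc17a7, Gad1 and Gad2 are among these markers, and the rule limits them in every gated nucleus. Of the 6 neuron markers tested, 0 had a positive log2 fold change and the median was -0.98. Their part in the 6 lower genes was not tested. Without nuclei of high doublet score, 0 genes were called.

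**Figure D4:**
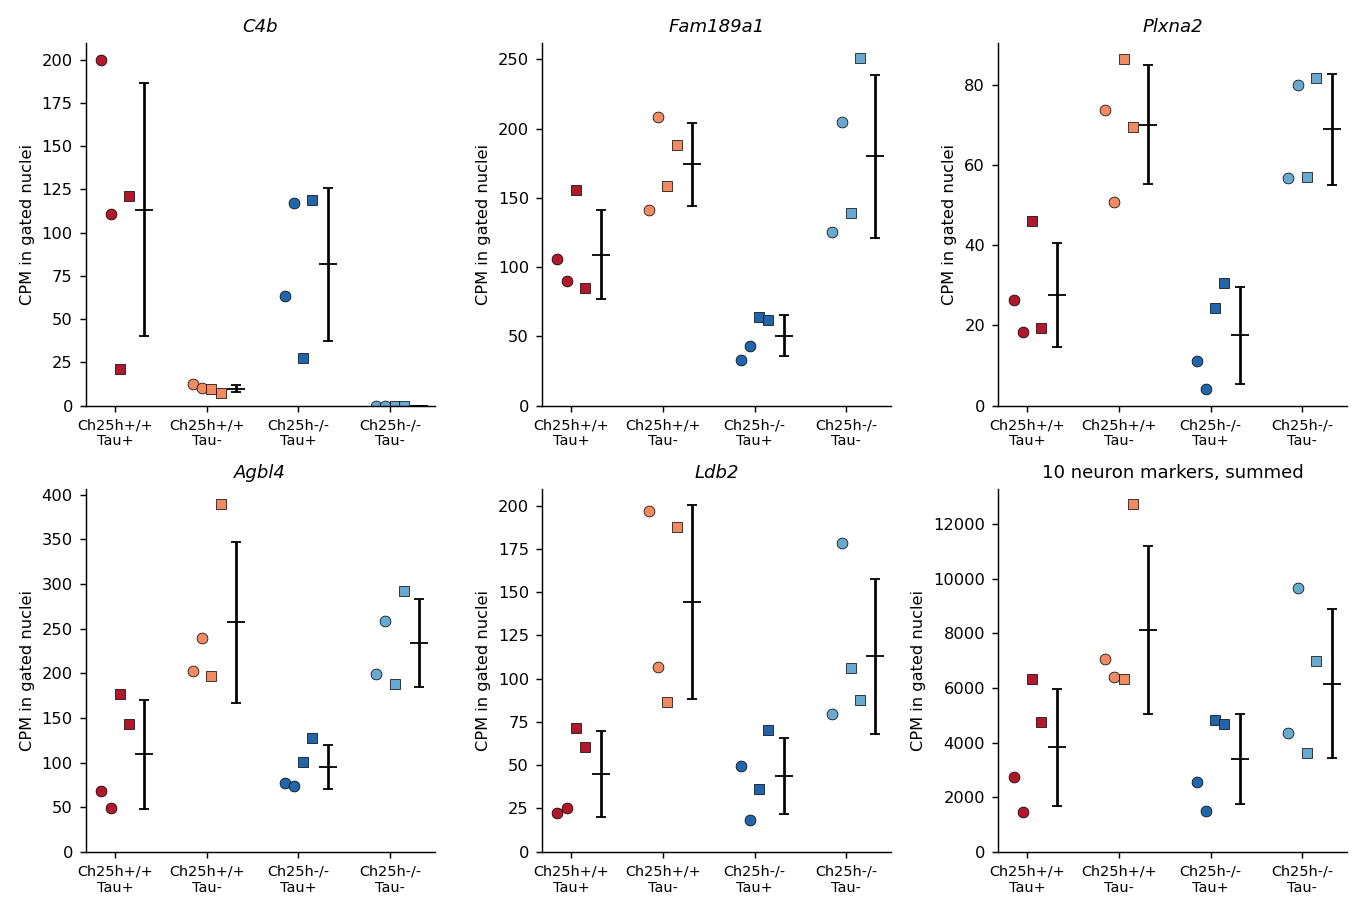
Level in CPM in the gated nuclei of each library, by group, for 5 genes called for tau and for 10 neuron markers summed. Circles are replicates 1 and 2, squares replicates 3 and 4, and bars are mean ± SD. C4b lies at 21.0 CPM or above in every Tau+ library and at 12.3 CPM or below in every Tau- library. The 8 Tau- libraries together held 7 C4b UMIs.

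The count of calls changed by over 1.5 times with 14 of the 16 libraries left out 1 at a time. It was 0 without Ch25h-/- Tau+ replicate 1, and 1 to 4 without each of 8 others. With replicate 3 of 1 group left out it was 68 (Ch25h-/- Tau-), 47 (Ch25h+/+ Tau-), 41 (Ch25h-/- Tau+) or 30 (Ch25h+/+ Tau+). It was 29 when Ch25h-/- Tau- replicate 1 was dropped. Replicates 1 and 2 alone gave 155 calls, and replicates 3 and 4 alone gave 0. Of the named genes, Fam189a1 kept its call in 15 of the 16 fits that each leave out 1 library, Plxna2 in 11, C4b in 8, Agbl4 and Ldb2 in 7, Syt16 in 6 and Rit2 in 5. The log2 fold change of C4b stayed between 5.24 and 5.59 in these fits, with an adjusted p in edgeR of up to 0.131. A term for the sides of the principal component gave 14 calls, no filter on low counts gave 269, and DESeq2 called 107 genes, 20 higher and 87 lower.

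Within Ch25h-/- mice 2 genes were called for tau (0.0404%), Fam189a1, which fell by 1.86, and Rit2, which fell by 1.798 on the log2 scale (edgeR, adjusted p = 0.0147 and 0.0406). DESeq2 called 11. Without nuclei of high doublet score, and with at least 4 marker UMIs, 0 were called. Of the 16 fits that each leave out 1 library, Fam189a1 kept its call in 12 and Rit2 in 5. Within Ch25h+/+ mice edgeR called 0 (0%), with 446 genes at p under 0.05 before adjustment, while 1 was called by DESeq2. The smallest p values there belonged to genes not called. Slc12a5, the neuronal chloride exporter, had a log2 fold change of -2.05 ± 0.47 and C4b one of 3.48 ± 0.77 (edgeR, adjusted p = 0.437 for both).

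In edgeR no gene of the lists was called for tau over both genotypes except C4b, counted among the genes of disease-associated oligodendrocytes. Of 23 mature genes tested, 20 had a positive log2 fold change, with a median of 0.39 against 0.01 over all genes. Opalin, a myelin membrane protein, was at 0.83 ± 0.26 and Mog at 0.56 ± 0.19 (edgeR, adjusted p = 0.142 and 0.159). Of 18 genes of the newly formed stage, 4 were positive, with a median of -0.09. The genotypes differed in sign here, with 13 of 18 positive in Ch25h+/+ mice (median 0.21) and 1 of 18 in Ch25h-/- mice (median -0.44), while 0 genes were called for the interaction and the difference between the lists was not tested. Over all 4952 genes 2560 and 2423 were positive. The make-up of the gated nuclei differed too, over nuclei pooled per group. Those with 10 or more marker UMIs were 51 of 376 and 22 of 221 in the Ch25h+/+ groups with and without tau, and 47 of 400 and 23 of 154 in the Ch25h-/- groups. In the single Ch25h-/- libraries they were 14 of 100, 21 of 130, 7 of 99 and 5 of 71 with tau and 3 of 55, 5 of 29, 6 of 33 and 9 of 37 without, with overlap. Its part in these signs was not tested. LXR is the oxysterol receptor. All 7 tested genes of a list that joins LXR targets and genes of cholesterol efflux were positive, with a median of 0.31. Of 10 genes of this list with enough UMIs, 7 had their highest mean in mature oligodendrocytes, against 2733 of 7209 over all genes. The part of the make-up in the signs of this list was not tested either. Apoe, the lipid carrier, was at 0.67 ± 0.21 (edgeR, adjusted p = 0.141).

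Loss of Ch25h, as labelled, gave 0 calls over both tau states (0%; edgeR), with 160 genes at an unadjusted p under 0.05 and 0 calls by DESeq2. Within Tau+ and within Tau- mice, and for the interaction, both tools called 0 (0%), with 98, 251 and 222 genes at an unadjusted p under 0.05 in edgeR. Of the 7 genes of LXR targets and cholesterol efflux, 1 was positive, with a median of -0.32. In Tau- mice 0 of these 7 were positive (median -0.46), and in Tau+ mice 2 of 7 (median -0.16). Of the 23 mature genes 4 were positive, with a median of -0.17, and of the 18 of the newly formed stage 15 were, with a median of 0.17. The signs of the mature list and of the newly formed list were those of the Tau- mice, where 4 of 23 (median -0.36) and 17 of 18 (median 0.42) were positive. In Tau+ mice 15 of 23 (median 0.06) and 6 of 18 (median -0.10) were. In Tau- mice nuclei with 10 or more marker UMIs were 22 of 221 in the Ch25h+/+ and 23 of 154 in the Ch25h-/- group, and the part of that make-up was not tested. The median over all genes was -0.000722. Ptgds, prostaglandin D2 synthase, had a log2 fold change of -0.58 ± 0.16, with overlapping libraries (edgeR, adjusted p = 0.9999).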

How the data were processed

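Nuclei were profiled with a droplet 3' kit. The authors deposited raw UMI counts per gene and barcode, made with Cell Ranger 4 per the file headers, while the submitters' processing notes list Cell Ranger 3.1.0, Seurat and build mm10. Whether introns or strand were used in counting is not given in the sources used here. Libraries held 51270831 to 84870650 UMIs, and the gated nuclei 112233 to 486690 UMIs a library. Library pairs shared 10 to 40 nucleus barcodes, and no gated barcode occurred in 2 libraries.

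Counts were summed per library and stage and scaled to CPM, computed here from the deposited counts. Genes were tested with edgeR 4.0.16 (quasi-likelihood, TMM, 1 mean per group) and, as an alternative, DESeq2 1.42.0, and shares with exact permutation over libraries. The SE beside a log2 fold change is not given by edgeR. It was computed as the size of the change divided by the square root of the quasi-likelihood F statistic. Scripts were tested on simulated data. High doublet scores are the top 0.8% of Scrublet scores per 1000 nuclei. Promoters come from RefSeq, and gene positions from GENCODE, which matched 32158 of 32285 gene IDs.

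Replicate numbers follow accession order. Replicates 1 and 2 and replicates 3 and 4 fell on opposite sides of the first principal component of the other nuclei. It was taken after group means were removed and holds 32.7% of the variance left. Removing group means by itself puts libraries of every group on both sides. Genes were named where called, with at least 5 UMIs a library on average and no overlap between groups, up to 5 in each direction, or by the smallest p where fewer than 3 were called. The members and lists were chosen with earlier results of these data known.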

Additional observations from a re-analysis of the deposited data

How the results depend on the processing

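No paired analysis was possible because the labels give no replicate numbers. For genes called for tau over both genotypes (7), DESeq2 gave 107, no filter on low counts 269, a term for the side of the principal component 14, replicates 1 and 2 alone 155, and replicates 3 and 4 alone, nuclei without high doublet scores and at least 4 marker UMIs 0 each. For tau in Ch25h-/- mice (2), DESeq2 gave 11, no filter 52, replicates 1 and 2 alone 46, and the last 3 of these settings 0 each. For tau in Ch25h+/+ mice (0), DESeq2 gave 1 and no filter 61. No filter gave 6 for Ch25h loss in Tau- mice and 5 for the interaction. Leaving out 1 library gave 0 to 68, 0 to 4 and 0 to 1 calls for tau over both, in Ch25h-/- and in Ch25h+/+ mice. The causes were not tested.

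The share of all nuclei (tau over both, 0.580 points) was 0.128 thinned, 0.163 with at least 4 and 0.0761 with at least 10 marker UMIs, 0.665 in replicates 1 and 2 and 0.495 in replicates 3 and 4 (exact permutation tests, adjusted p = 0.108, 0.108, 0.147, 0.444 and 1.0). It was 0.503 to 0.628 with each library left out, past the threshold in all 16. The tau groups did not overlap in either genotype, so they stay apart whichever library is dropped. Passing in all 16 therefore adds no evidence. Ch25h loss changed sign: at least 10 marker UMIs gave -0.00395 in Tau+ and 0.00623 in Tau- mice. Over both it was 0.00872 without high doublet scores, 0.0103 with at least 4, 0.00114 with at least 10 marker UMIs and 0.0512 in replicates 1 and 2. Leaving out a library gave -0.0405 to 0.2295 in Tau+ mice and -0.0892 to 0.0458 over both.

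Among lineage nuclei, tau changed sign when thinned, to -0.201 in Ch25h+/+ mice and -0.000131 over both, and to -0.486 in Ch25h-/- mice of replicates 3 and 4. Ch25h loss in Tau+ mice became 0.240 thinned, 0.222 without high doublet scores, 0.00881 with at least 4 marker UMIs and 0.551 in replicates 1 and 2. In Tau- mice it became -0.161 thinned, -0.189 without high doublet scores, -0.195 with at least 1000 UMIs and -0.587 in replicates 1 and 2. Over both it became 0.0393 thinned, 0.0165 without high doublet scores, 0.138 with at least 4 and 0.0825 with at least 10 marker UMIs. Leaving out a library gave -0.858 to 0.5305, -0.349 to 0.602 and -0.422 to 0.277. The share with a Mog or Mag UMI ranged from 7.37 to 12.6 points for tau with a library left out. Its adjusted p ranged from 0.049, which passes, to 0.274 (exact permutation tests), and 15 of 16 stayed above the threshold. Leaving single libraries out aside, 153 values of the comparisons under other settings were classed as unchanged. A further 21 were classed as reversed, 5 as weaker and 17 as moved counts of calls. For shares, unchanged means the same direction and side of the threshold. For counts of calls it means only a similar count. The settings include a UMI floor for each library. These floors, 198 to 408 UMIs, lie under the 500 UMIs already required. That setting could change nothing, so its unchanged values add no evidence.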
